A study of Solanum lycopersicum with 24 samples.

Results

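The polysome libraries labelled Hardening and Control make up 4 of the 24 libraries of this tomato series, 2 for each label, and were chosen by their labels alone. They came from leaves of Solanum lycopersicum plants of the selection line YaLF, sampled at 28 days. All groups used here were grown at 25 °C by the labels. The label Hardening stands for 5 days at 6 °C, Stress for 2 h at 0 °C, Combo for the hardening followed by the 2 h at 0 °C, and Control for plants without either treatment. The study's methods give another hardening temperature than the labels, and by those methods leaves of Stress and Combo plants were taken 2 h after the rest, so treatment and time of day cannot be told apart there. The remaining libraries are the total RNA and monosome fractions of the same labels and the polysomes labelled Stress and Combo. The methods speak of technical repetitions whereas the column headings speak of biological replicates, so p-values measure the spread between these libraries, which may be technical.

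In polysomes an mRNA is read by several ribosomes at a time, and in monosomes by a single one. The mRNA content of polysomes therefore follows both the amount of an mRNA and how readily ribosomes load on it, and a direct comparison of polysome libraries cannot tell the 2 apart. Plants that sense cold quickly induce CBF transcription factors, which bind the promoters of cold-regulated genes. Under long cold, leaves accumulate protective proteins such as LEA proteins and dehydrins, while transcripts of light-harvesting proteins often decline. In bulk leaf tissue, fewer cells of a type and less RNA per cell cannot be told apart.

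Values are TPM as deposited, divided by a factor per library that was set from the trimmed mean of log ratios within a fraction, and are called scaled TPM here. Levels of different fractions are therefore not on a common scale. Transcripts with at least 1 TPM numbered 13363 to 18415 per polysome library, 20551 to 21698 per total RNA library and 12922 to 18270 per monosome library. The TPM keep no depth, so no counting interval is given. The leaf identity held in all 4 libraries. The Rubisco small subunit transcript RBCS4 had 41605 and 39132 scaled TPM in the libraries labelled Hardening, against 54699 and 51144 in those labelled Control. The fruit ripening transcript E8 had at most 0.0118 scaled TPM in any of them. In polysomes labelled Control, long-cold markers such as LE25 were low, as in total RNA of that label. Markers of long cold did not bear out the label Hardening, however, and markers of short cold bore out neither label, as described further on. For that reason the libraries are called by their labels throughout. Up and Down in polysomes are therefore differences between libraries by label. Whether the libraries labelled Hardening and Control differ by treatment, by ribosome fraction or by both cannot be told apart from these values.

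Of 17759 transcripts tested in polysomes, 359 were Up and 363 were Down in the libraries labelled Hardening relative to those labelled Control, which is 4.07% of those tested (2.02% Up and 2.04% Down). Up and Down stand for a log2 change over 1 or under -1 on the log2(scaled TPM + 1) scale with a Benjamini-Hochberg adjusted p under 0.05 in limma. An unadjusted p under 0.05 was reached by 4471 transcripts. The median change of all tested transcripts was 0.09, with quartiles of -0.26 and 0.43. On TPM as deposited, without further scaling, the median change was 0.98 and the split was 8003 Up and 94 Down. The number of calls rested on single libraries. It was 24 Up and 41 Down without Hardening replicate 1, and 23 Up and 23 Down without Hardening replicate 2. Without Control replicate 1 it was 1070 Up and 377 Down, and without Control replicate 2 it was 1205 Up and 421 Down. A fit of the 4 libraries alone gave 152 Up and 242 Down. Replicates labelled Hardening differed by a median of 0.11 on the log2 scale and replicates labelled Control by 0.34.

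The falls with the greatest weight were those of a few very abundant transcripts. A mean of at least 10000 TPM over the 4 libraries was reached by 11 transcripts, of which 6 were Down. One of the 6 is annotated as ribosomal RNA, LOC112941208, and the others were not matched to a named gene. Together these 6 took 4.71% and 2.95% of all TPM in the polysome libraries labelled Hardening, against 49.2% and 54.0% in those labelled Control. The 6 were chosen as Down in these same libraries, so their lower share under the label Hardening follows from the choice. LOC112941208 had 2806 and 3052 scaled TPM in the libraries labelled Hardening, against 34129 and 70337 in those labelled Control, a log2 change of -4.07 (adjusted p = 0.0042, limma). The remaining 5 of the 11 were photosynthesis transcripts, including CAB1B and rbcS1, and none of them was Up or Down. These 6 transcripts took 0.749% to 5.98% in the total RNA libraries. In monosomes they took 11.9% and 25.6% in the libraries labelled Hardening, against 57.8% and 61.8% in those labelled Control. Among polysomes labelled Combo they took 4.89% and 7.58%, against 35.6% and 42.6% in those labelled Stress. The part of this share in the other changes was not tested.

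RNAs of the signal recognition particle and of ribosomes fell with them. All 3 tested signal recognition particle RNAs were Down, as were 3 of 8 ribosomal RNAs, beside 2.04% of all tested transcripts. No member of either class was Up. The other 2 particle RNAs were LOC107546769 and LOC108663988, with log2 changes of -4.05 and -3.63, and the other 2 ribosomal RNAs were LOC112940417 and LOC112940756, with changes of -4.34 and -4.85. The 7SL RNA 7SLRNA, the scaffold of the particle that directs secretory proteins to the endoplasmic reticulum, had 12.4 and 19.8 scaled TPM in the libraries labelled Hardening, against 148 and 304 in those labelled Control. That is a log2 change of -3.68 ± 0.54 (SE), with an adjusted p of 0.0194 in limma. The spliceosomal RNA U1.7 had 13.9 and 14.8 scaled TPM in the libraries labelled Hardening, against 94.3 and 70.03 in those labelled Control. Its log2 change was -2.43 ± 0.29 (adjusted p = 0.0106). The kit used selects polyadenylated RNA, and the part of that selection in the levels of these RNAs was not tested. Ribosomal RNA summed to 3171 and 3585 TPM in polysomes labelled Hardening, against 18578 and 33705 in those labelled Control. In monosomes labelled Hardening it differed between replicates, with 11828 and 85844 TPM. Other classes were mixed, and their counts stand beside 2.02% Up and 2.04% Down of all tested transcripts. Among 83 small nuclear RNAs 4 were Up and 9 Down (39 higher, 40 lower), among 110 small nucleolar RNAs 9 were Up and 3 Down (median 0.55), and among 382 long non-coding RNAs 2 were Up and 19 Down. Protein-coding transcripts were called evenly, with 303 Up and 275 Down of 15467.

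MicroRNA records moved in both directions, with 1 Up and 5 Down of 15, beside 2.02% Up and 2.04% Down of all tested transcripts. The records are precursors, and their values are not levels of the mature microRNA. MIR168a and MIR168b encode miR168, which targets the mRNA of the silencing protein AGO1. MIR168b had 13.5 and 23.5 scaled TPM in the libraries labelled Hardening, against 75.5 and 147 in those labelled Control (log2 change -2.50 ± 0.36, adjusted p = 0.0175 in limma). MIR168a had 33.7 and 20.8 in the libraries labelled Hardening, against 62.8 and 136 in those labelled Control (log2 change -1.77 ± 0.38, adjusted p = 0.0476). MIR6024, a precursor of a microRNA that targets disease resistance genes, had 9.88 and 13.9 in the libraries labelled Hardening, against 175 and 57.9 in those labelled Control (log2 change -3.0 ± 0.48, adjusted p = 0.0226). MIR6023 and MIR9479, the others called Down, had log2 changes of -1.05 and -2.08. In the opposite direction, MIR482a, which targets the same class of genes, had 20.5 and 55.5 scaled TPM in the libraries labelled Hardening and was listed at 0 in both labelled Control (adjusted p = 0.0044). In monosomes MIR482a was listed at 0 in 1 library of each of these labels and had 16.1 scaled TPM in the other labelled Hardening and 87.6 in the other labelled Control.

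Protein-coding transcripts that fell included the coactivator MBF1a and the endoplasmic reticulum chaperone BiP/grp78. MBF1a (NM_001247412.2) had 33.3 and 35.8 scaled TPM in the libraries labelled Hardening, against 132 and 150 in those labelled Control, a log2 change of -1.99 ± 0.18 (adjusted p = 0.0052, limma). BiP/grp78 had 9.52 and 9.67 in the libraries labelled Hardening, against 31.6 and 31.4 in those labelled Control, a log2 change of -1.62 ± 0.12 (adjusted p = 0.0034). CO1 had 11.8 and 11.3 in the libraries labelled Hardening, against 36.2 and 33.5 in those labelled Control (log2 change -1.52 ± 0.17). In each case the replicates lay close together. The labels did not overlap, as the rule that chose these transcripts required, and 24.1% of all tested transcripts were lower without overlap. The dehydrin DHN, a protein that protects cells during water loss, had 40.4 and 39.2 scaled TPM in the libraries labelled Hardening, against 92.6 and 88.0 in those labelled Control (log2 change -1.16 ± 0.09, adjusted p = 0.0034). Smaller falls were called for the ethylene response factors ERF6 and ERF-D4, with log2 changes of -1.04 and -1.01, for the transcription factor WRKY40 (-1.06) and for the linker histone H1 (-1.01). On TPM as deposited, DHN, ERF6, ERF-D4, WRKY40 and H1 had changes between 0.01 and 0.16 and none of them was called, and MBF1a, BiP/grp78, CO1 and MIR168a were not Down either.

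The rises were led, after MIR482a, by PDF1A (NM_001316977.1), a peptide deformylase that removes the formyl group from new organellar proteins. It had 37.6 and 17.7 scaled TPM in the libraries labelled Hardening, against 1.14 and 0.918 in those labelled Control. Its log2 change was 3.73 ± 0.36 (adjusted p = 0.0065, limma). ABCC9, an ABC transporter of the C family, had 52.9 and 46.8 in the libraries labelled Hardening, against 13.5 and 5.30 in those labelled Control (log2 change 2.41 ± 0.37, adjusted p = 0.0206). TLRP, a tyrosine- and lysine-rich cell wall protein, was the most abundant of the named rises, with 5619.9 and 5709 scaled TPM in the libraries labelled Hardening, against 2245 and 2602 in those labelled Control (log2 change 1.23 ± 0.17, adjusted p = 0.0171). The libraries of the 2 labels did not overlap for any of these, as the rule that chose them required. Of all tested transcripts 33.7% were higher and 24.1% lower without overlap.

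Further rises concerned proteins known from stress responses. TIL', a temperature-induced lipocalin, had 125 and 123 scaled TPM in the libraries labelled Hardening, against 57.4 and 41.2 in those labelled Control (log2 change 1.33 ± 0.20). The mitochondrial small heat shock protein MTSHP had 16.9 and 18.2 in the libraries labelled Hardening, against 6.39 and 7.53 in those labelled Control (log2 change 1.22 ± 0.17). The antimicrobial peptide snakin-2, SN2, had 201 and 206 in the libraries labelled Hardening, against 101 and 82.1 in those labelled Control (log2 change 1.15 ± 0.20). ODD rose by a log2 change of 1.40 ± 0.28, the lipoxygenase loxF by 1.10 ± 0.20 and the early light-inducible protein ELIP by 1.09 ± 0.23. Of the 23 named transcripts called in polysomes, 4 kept their call without Hardening replicate 1 and 2 kept it without Hardening replicate 2. The 2 were MIR482a and PDF1A.

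**Figure D1:**
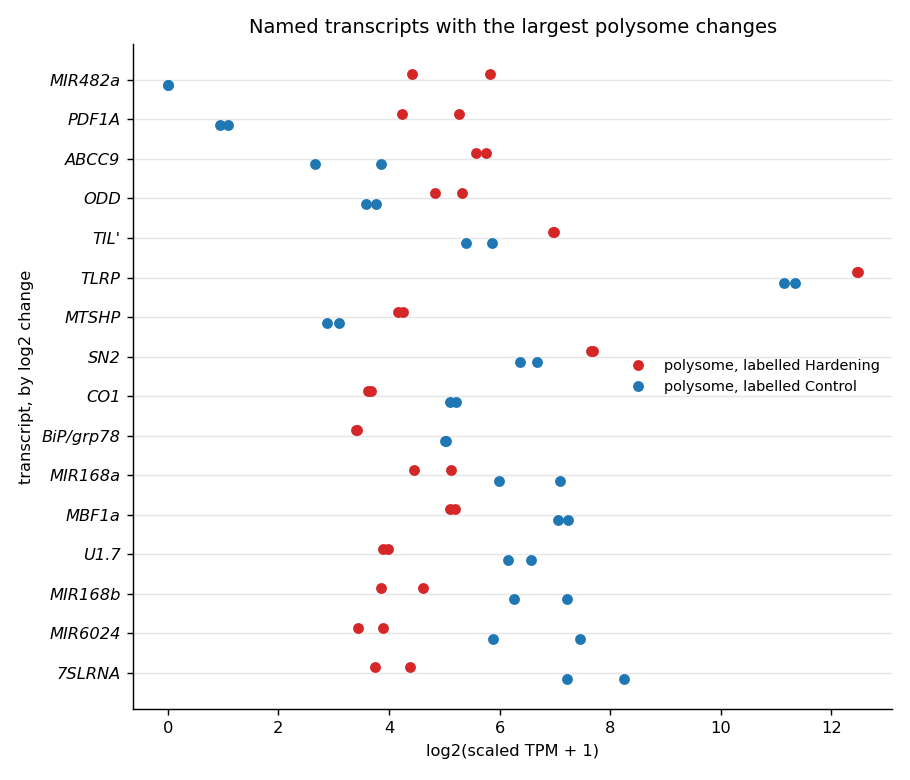
Level on the log2(scaled TPM + 1) scale (x axis) of the 8 Up and 8 Down named transcripts with the greatest log2 change, in each polysome library labelled Hardening (red) and Control (blue). The libraries of the 2 labels do not overlap for any transcript, as the rule that chose them requires. MIR482a lies at 0 in both libraries labelled Control.

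Gene lists, defined by symbol, are given beside the 4.07% of all transcripts that were called, so that 0 or 1 call in a short list is no result about its members. None of 15 chlorophyll a/b-binding transcripts was called in polysomes, and their median change was 0.16 beside 0.09 for all tested transcripts. None was called either among 17 photosystem, Rubisco and Calvin cycle transcripts (median -0.16), 7 ribosomal protein transcripts (median -0.34) or 8 translation factor transcripts (median -0.11). In the list of CBF, cold and dehydration proteins, 1 of 13 was Down, namely DHN, and the median was -0.11. Among 50 ethylene transcripts 2 were Down and none Up (median 0.05), and of 12 WRKY transcripts 1 was Down (median -0.33). Of 75 auxin and cell wall transcripts 1 was Up, and their median was 0.36. Heat shock proteins and factors had 1 Up of 15 (median 0.37), a list whose symbol pattern did not take in MTSHP, and jasmonate and wound response 1 Up of 18 (median 0.07). Light and clock had 1 Up of 19, namely ELIP (median 0.42), and histones 1 Down of 4, namely H1 (median -0.18). Sugar metabolism had 1 Up of 27 (median 0.05), MYB factors 1 Up of 7 (median -0.03), and proteasome and ubiquitin 1 Up of 10 (median 0.06). Members of the sugar list, TPS symbols among them, were taken by symbol alone, and their function was not checked. No call was made among 2 plastid-encoded, 1 desaturase, 6 NAC, 15 pathogenesis-related, 17 antioxidant, 11 abscisic acid, 18 aquaporin and 9 phenylpropanoid transcripts. Among the Up members, 5 had means under 10 TPM and are named here after their values were seen. Of these, log2 changes are given for the auxin carrier PIN4 (log2 change 1.11), the heat shock cognate hsc70.3 (1.21), TPS1 (1.11) and THM6 (1.16). The remaining one, the ubiquitin-conjugating enzyme UBC3, had 4.16 and 4.83 scaled TPM in the libraries labelled Hardening and was listed at 0 in both labelled Control.

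In total RNA the same labels gave a far wider change. Libraries labelled Hardening differed from those labelled Control by 3138 Up and 3617 Down transcripts, 30.7% of 21985 tested. Libraries labelled Stress differed from those labelled Control by 492 Up and 433 Down, 4.21%. The median size of the log2 change was 0.35 in polysomes labelled Hardening against Control, 0.67 in total RNA for Hardening and 0.25 in total RNA for Stress. Polysome replicates labelled Control differed by a median of 0.34, and the part of this spread in the polysome changes was not tested. By the number and the size of changes, the polysome comparison lay nearer to Stress than to Hardening in total RNA under this scaling. On TPM as deposited the order turned, with 8003 Up and 94 Down of 18024 tested in polysomes, beside 4909 Up and 2634 Down in total RNA for Hardening and 617 Up and 333 Down for Stress, of 21995 tested each.

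By direction, across all transcripts, it resembled neither. Across 17395 transcripts, the polysome change had a Pearson correlation of -0.02 (Spearman -0.03) with the total RNA change for Hardening, and of 0.07 (Spearman 0.10) with that for Stress. For the 6664 transcripts with a mean of at least 10 scaled TPM the Pearson values were -0.02 and 0.14. These are correlations across transcripts, which are not independent replicates, and values this weak carry no direction. The polysome and total RNA comparisons share no library, whereas both total RNA comparisons share the Control libraries.

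**Figure D2:**
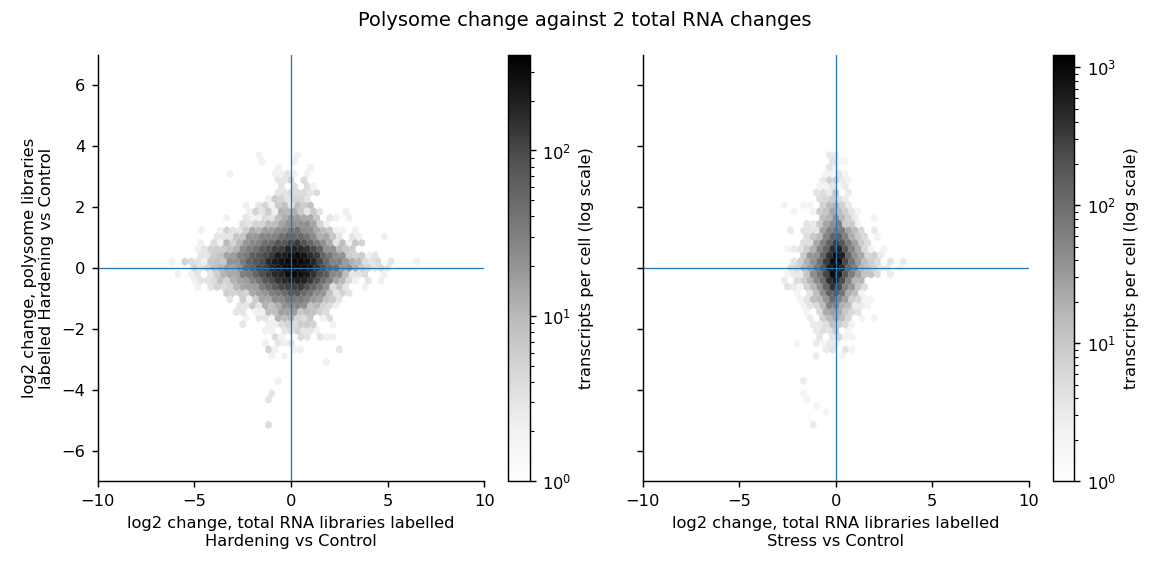
Log2 change of each transcript in polysomes labelled Hardening vs Control (y axis) against its log2 change in total RNA labelled Hardening vs Control (left) and Stress vs Control (right), with the shade giving the number of transcripts on a log scale. Neither cloud is tilted, with Pearson correlations of -0.02 and 0.07 over 17395 transcripts.

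Lists called in total RNA were then followed in polysomes. Of the transcripts Up in total RNA for Hardening, 2739 were tested in polysomes, and 61 of these were Up and 52 Down there. Of those Down in total RNA for Hardening, 3084 were tested, with 90 Up and 45 Down. Their median polysome changes were 0.08 and 0.14. Of the transcripts Up in total RNA for Stress, 353 were tested in polysomes, with 10 Up and 9 Down (median 0.13), and of those Down for Stress 364 were tested, with 7 Up and 4 Down (median 0.08). Taken the other way, the 348 polysome Down transcripts tested in total RNA had a median change of -0.18 there for Stress beside -0.01 for all, and 228 of them were lower, with 34.5% higher beside 49% of all. The 353 polysome Up transcripts had 49.3% higher for Stress. For Hardening in total RNA, 51% of the Up and 50.3% of the Down transcripts were higher, beside 51.7% of all. Between 3.02% and 5.38% of the members of these 4 lists were called, beside 4.07% of all. Among the 48 tested transcripts that were Up for Hardening and Down for Stress in total RNA none was called, and 23 were higher and 25 lower in the polysome libraries labelled Hardening.

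The difference between the polysome change and each total RNA change was also tested per transcript over 20109 transcripts. It was Up for 3898 and Down for 2568 against the total RNA change for Hardening, 32.2% of those tested. Against the total RNA change for Stress it was Up for 1094 and Down for 530, 8.08%. Leaving out one of the 4 polysome libraries gave 756 to 2158 Up and 384 to 886 Down against the change for Stress. On TPM as deposited the first test gave 6378 Up and 1575 Down and the second 6892 Up and 236 Down.

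Transcripts of long cold are given next. LE25, AKR4B and Cab-1D were named for their wide total RNA change for Hardening. A wide gap to the polysome change follows from that choice wherever polysomes changed little. LE25 (NM_001309385.1), an LEA protein, had 3.56 and 2.13 scaled TPM in polysomes labelled Hardening, against 1.40 and 3.29 in polysomes labelled Control, and these overlap. In total RNA it had 916 and 761 in the libraries labelled Hardening, against 1.76 and 3.05 in those labelled Control. The aldo-keto reductase AKR4B had 4.36 and 4.45 in polysomes labelled Hardening, against 4.83 and 5.19 in polysomes labelled Control, while total RNA gave 1707 and 1601 for Hardening against 11.1 and 10.3 for Control. The differences between the polysome and total RNA changes were -7.52 for LE25 (adjusted p = 3.08e-07, limma) and -7.22 for AKR4B (adjusted p = 6.18e-10).

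The light-harvesting transcript Cab-1D (NM_001346777.1) was high under both polysome labels, with 6065 and 5829.8 scaled TPM for Hardening, against 3873 and 3913 for Control (log2 change 0.61 ± 0.17, adjusted p = 0.0890). In total RNA it had 16.4 and 15.3 for Hardening, against 4147 and 3970.0 for Control. The median change of the 15 chlorophyll a/b-binding transcripts was -5.40 in total RNA for Hardening, where all 15 were Down, and 0.03 in total RNA for Stress, where none was called. Near-identical copies of this family share reads, so the values of single members are uncertain. The chitinase CHI3 had 593 and 582 in polysomes labelled Hardening, against 579.5 and 633 in polysomes labelled Control, whereas total RNA gave 12889 and 12845 for Hardening against 1762 and 1620.7 for Control. The polysomes labelled Hardening thus lacked the long-cold levels that total RNA of the same label had.

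CBF1 and ERF-B5, both Up in total RNA for Stress, were high under both polysome labels. CBF1 (NM_001247194.2) had 214 and 203 scaled TPM in polysomes labelled Hardening, against 168 and 146 in polysomes labelled Control (log2 change 0.41 ± 0.34, adjusted p = 0.50). Polysomes labelled Stress had 3.93 and 2.97 and those labelled Combo 9.10 and 3.74. In total RNA, CBF1 had 2.95 and 2.29 for Hardening, 208 and 195 for Stress, 9.78 and 11.7 for Combo, and 13.96 and 9.38 for Control. A high level thus came with the label Stress in total RNA, and with the labels Hardening and Control in polysomes. In monosomes CBF1 had 14.9 and 13.1 for Hardening, against 8.07 and 7.61 for Control.

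ERF-B5, an ethylene response factor, followed the same order. It had 94.7 and 96.5 scaled TPM in polysomes labelled Hardening, against 105 and 102 in polysomes labelled Control, and 0 to 2.64 in the 4 polysome libraries labelled Stress and Combo. In total RNA it had 2.21 and 1.07 for Hardening, 278 and 263 for Stress, and 37.1 and 35.7 for Control. LAPA1, a wound-induced leucine aminopeptidase, went the other way, with 6.03 and 6.07 in polysomes labelled Hardening, against 5.43 and 5.92 in polysomes labelled Control, and 74.98 to 226 in those labelled Stress and Combo. In total RNA LAPA1 was low for Stress alone, with 4.26 and 4.06, against 69.3 and 62.0 for Control. ERF-D4, also Up in total RNA for Stress, differed less between polysome labels. It had 11.6 and 12.6 in polysomes labelled Hardening and 26.3 and 24.3 in those labelled Control. Polysomes labelled Stress had 10.5 and 7.82, and those labelled Combo 2.53 and 2.48.

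Ratios of 2 transcripts within a library do not depend on scaling. CBF1 over LAPA1 was 35.5 and 33.5 in polysomes labelled Hardening, against 30.8 and 24.7 in polysomes labelled Control. It was 0.0070 and 0.0062 in total RNA labelled Hardening, 48.9 and 48.1 in total RNA labelled Stress, and 0.202 and 0.151 in total RNA labelled Control. LE25 over Cab-1D was below 0.001 in all 4 polysome libraries compared, at most 0.000841. It was 55.8 and 49.7 in total RNA labelled Hardening, 0.000225 and 0.000382 in total RNA labelled Stress, and 0.000424 and 0.000769 in total RNA labelled Control. By the first ratio the polysome libraries of both labels lay next to total RNA labelled Stress. The second set them apart from Hardening and did not separate Stress from Control.

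**Figure D3:**
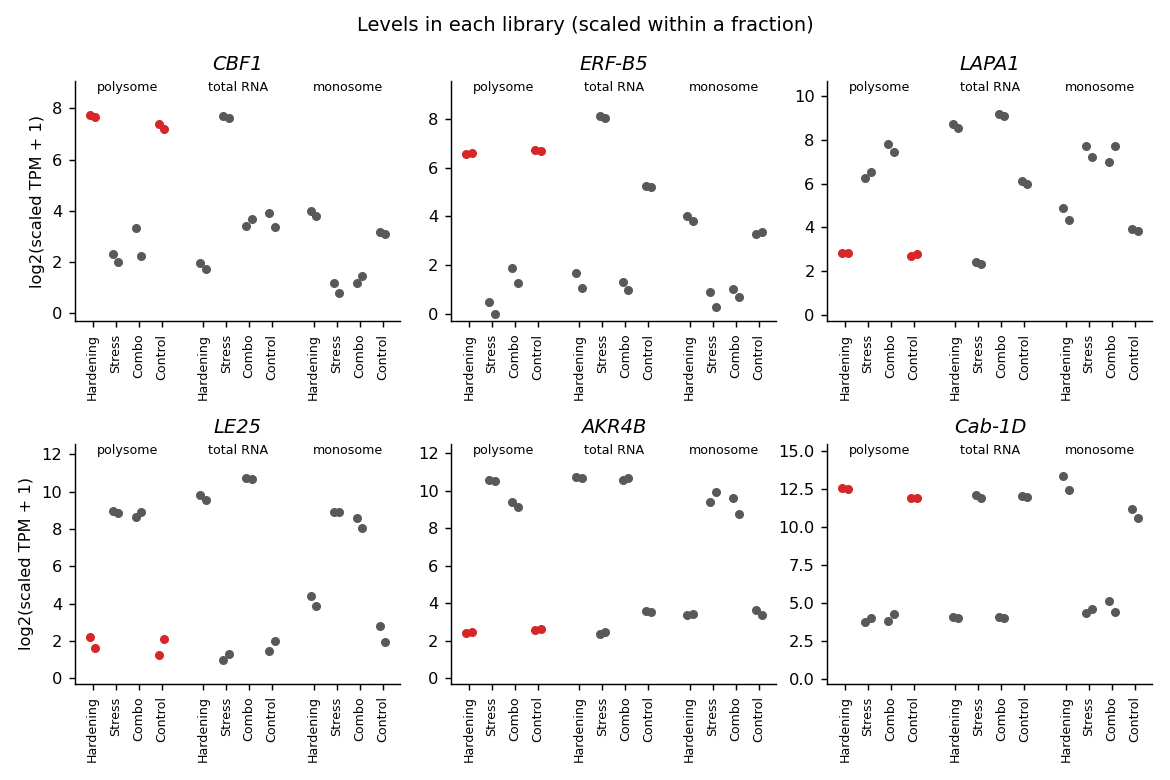
Level on the log2(scaled TPM + 1) scale (y axis) of 6 transcripts in each library (points), by fraction and label, scaled within a fraction. In the polysome libraries labelled Hardening and Control (red), CBF1 and ERF-B5 are high, LAPA1, LE25 and AKR4B are low and Cab-1D is high, the order seen in total RNA labelled Stress.

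Scores were also taken over lists of transcripts with a mean of at least 5 scaled TPM in total RNA. A short-cold score was taken as the mean log2 level of 134 transcripts Up in total RNA for Stress and not called for Hardening, minus that of 146 transcripts Down in the same way. It was 0.89 and 0.94 in polysomes labelled Hardening, against 0.91 and 0.97 in polysomes labelled Control. Polysomes labelled Stress had -0.65 and -0.68, and those labelled Combo -0.35 and -0.38. The total RNA libraries that defined the lists had 2.18 and 2.26 for Stress, -0.76 and -0.66 for Hardening and -0.87 and -0.62 for Control. All 8 monosome libraries lay between -1.01 and -0.44. The only positive scores were those of total RNA labelled Stress and of polysomes labelled Hardening and Control.

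A long-cold score was formed from 2275 Up and 2223 Down transcripts of total RNA for Hardening that were not called for Stress, with the same minimum mean of 5. It was -1.61 and -1.62 in polysomes labelled Hardening, against -1.59 and -1.56 in polysomes labelled Control, and 1.99 to 2.05 in polysomes labelled Stress and Combo. Total RNA had 2.15 and 2.14 for Hardening, against -1.55 and -1.61 for Control. Monosomes split by label as polysomes did, with -1.54 to -1.29 for Hardening and Control and 1.82 to 1.97 for Stress and Combo. Of the 2221 long-cold Up transcripts tested in polysomes, 1664 (74.9%) were lower in all 4 libraries labelled Hardening and Control than in all 4 labelled Stress and Combo, beside 24% of all tested transcripts. Of the 116 short-cold Up transcripts tested, 45 (38.8%) were higher in all 4, beside 24.4% of all. Another 16 (13.8%) were lower in all 4, beside 24% of all. Within this split the 2 labels compared here stood on the same side.

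**Figure D4:**
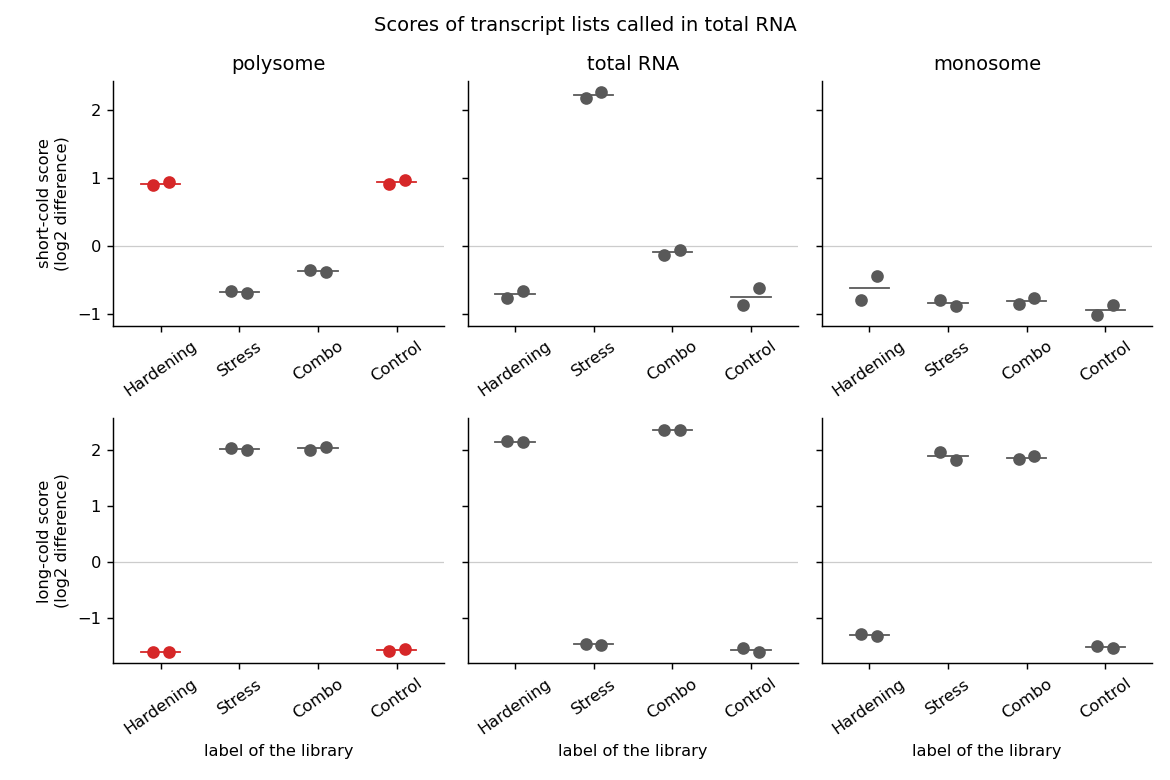
Short-cold score (top) and long-cold score (bottom), each a difference of mean log2(scaled TPM + 1) between transcripts Up and Down in total RNA (y axis), for each library (points) and group mean (lines), by fraction and label. Polysomes labelled Hardening and Control (red) have positive short-cold scores (0.89 to 0.97) and negative long-cold scores (-1.56 to -1.62), as does total RNA labelled Stress.

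Comparisons between fractions gave further values on the labels. Across 17395 transcripts, the change in polysomes labelled Stress relative to those labelled Control had a Pearson correlation of 0.74 with the total RNA change for Hardening and of -0.10 with that for Stress. The mean polysome level of the libraries labelled Hardening and Control, minus their mean monosome level, had a correlation of 0.36 with the total RNA change for Stress and of -0.07 with that for Hardening over 16365 transcripts. That level difference sets polysomes against monosomes, so ribosome fraction and treatment cannot be told apart in it. Polysomes labelled Hardening and Control had short-cold scores of 0.89 to 0.97. These lay above total RNA labelled Control (-0.87 and -0.62) and below total RNA labelled Stress (2.18 and 2.26). The change between polysomes labelled Hardening and Control had correlations near 0 with both total RNA changes. An exchange of labels between conditions or between fractions was not tested, and no library was reassigned.

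The change between polysomes labelled Hardening and Control was closer to changes between labels within polysomes or within monosomes that share no library with it. Its Pearson correlation was 0.29 with the change in polysomes labelled Combo relative to Stress (17759 transcripts), 0.28 with that in monosomes labelled Combo relative to Stress (16601 transcripts) and 0.23 with that in monosomes labelled Hardening relative to Control (16601 transcripts). For 6240 transcripts with a mean of at least 10 the values were 0.41, 0.39 and 0.30. Of the 359 Up transcripts, 270 were higher in polysomes labelled Combo than in those labelled Stress, 75.2% beside 59.2% of all tested transcripts. Of the 363 Down transcripts 297 were lower there, and 17.9% were higher. In monosomes labelled Hardening relative to Control, 246 of 322 Up transcripts were higher, 76.4% beside 61.7% of all, and 241 of 348 Down transcripts were lower. The share of the 6 abundant transcripts was lower in the first group of each of these pairs as well, and its part in the correlations was not tested.

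Most named transcripts showed the same order by group mean. Of the 23 called in polysomes, 10 Up and 13 Down, 21 differed in the same direction in polysomes labelled Combo relative to Stress, where BiP/grp78 and DHN were the exceptions. In monosomes labelled Hardening relative to Control 16 did, and the exceptions were MIR482a, ODD, MIR6024, ELIP, DHN, ERF6 and H1. In monosomes labelled Combo relative to Stress 19 did, and the exceptions were MIR482a, CO1, DHN and ERF6. PDF1A had 5.08 and 6.30 scaled TPM in polysomes labelled Combo, against 0 and 0.317 in polysomes labelled Stress. In monosomes it had 38.1 and 6.00 for Hardening, against 1.65 and 1.69 for Control. MBF1a had 162 and 117 in polysomes labelled Combo, against 316 and 268 in polysomes labelled Stress, and 90.9 and 79.4 in monosomes labelled Hardening, against 186 and 169 in monosomes labelled Control. In total RNA the direction differed, where MBF1a had a log2 change of 0.96 ± 0.13 in the libraries labelled Hardening relative to Control, under the limit for Up. Of the exceptions, BiP/grp78 had 49.0 and 55.2 in polysomes labelled Combo, against 21.4 and 23.8 in polysomes labelled Stress. DHN had 500.6 and 492 in polysomes labelled Combo, against 218 and 221 in polysomes labelled Stress.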

How the data were processed

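Leaf libraries were prepared from total RNA and from sucrose gradient fractions with a stranded kit that selects polyadenylated RNA. The authors converted base calls with bcl2fastq 2.20 and used kallisto to estimate abundances of SL3.1 transcripts. The deposited table holds TPM, which the authors scaled to 1000000 per library, for 45845 RefSeq transcripts, and whether strand was used is not given in the sources used here. The members and gene lists were chosen with earlier results of these data known.

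Each library was divided by an unweighted trimmed mean of log ratios within its fit (30% of log ratios and 5% of levels trimmed at each end). Those reaching a mean of 1 scaled TPM were tested on log2(scaled TPM + 1) with limma 3.58.1 in R 4.3.3, with 1 mean per group and a trended prior. The polysome fit used 8 polysome libraries, the total RNA fit 8 total RNA libraries, and the test of differences both. Fits were tested on simulated data with balanced changes and the same spread in every group. That setting covers neither the unequal spread of the replicates nor the shift of the few very abundant transcripts. Figures were drawn with matplotlib 3.10.9.

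Symbols came from a RefSeq names table of assembly SLM_r2.1, which matched 34881 transcripts to 24942 genes by accession without version. Coordinates and sequences were not used here. Named transcripts were the 8 Up and 8 Down with the greatest polysome change among those with a symbol, a mean of at least 10 TPM and no overlap, by the same criteria the 4 Up and 4 Down of each total RNA comparison, the 4 of each opposite direction, genes named by the study or earlier work, and called members of the lists. Leaf and fruit markers were checked. The alternatives were TPM without scaling, a pseudocount of 0.1, no filter, a minimum of 5, a replicate block, the 4 libraries alone, sums per gene and the omission of each library. One gene of the ribosomal protein list is not reported here.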

Additional observations from a re-analysis of the deposited data

Results flagged for a closer look

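The change under the label Hardening differed between polysomes and total RNA for 6466 of 20109 transcripts by the limma test of the difference. The values that follow are the polysome log2 change minus the total RNA log2 change, and all had adjusted p-values under 0.05 in that test. For the named transcripts that were called in polysomes, the difference was 9.63 for MIR482a (on the log2(scaled TPM + 1) scale, with both polysome libraries labelled Control and both total RNA libraries labelled Hardening listed at 0), 5.51 for PDF1A, 1.89 for ABCC9, 3.27 for TLRP and 4.42 for loxF. It was -2.91 for MIR6024, -2.29 for MIR168b, -1.68 for U1.7, -2.91 for MBF1a, -2.77 for MIR168a, -3.15 for BiP/grp78, -1.42 for CO1, -3.37 for DHN and -3.36 for ELIP, and 1.95 for ERF6.

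Transcripts that were high in total RNA under the label Hardening had negative differences, namely -7.52 for LE25, -7.22 for AKR4B, -5.51 for ASR3, -4.73 for ca3, -2.44 for LAPA1, -3.43 for ERF84, -2.77 for TAS14, -1.27 for ICE1A, -1.76 for CRY3, -2.92 for CHI3 and -1.70 for ubi3. Those that were low there had positive ones, namely 8.55 for Cab-1D, 8.73 for CAB12, 8.01 for Cab-1A, 7.00 for Cab-3C, 4.65 for CAB1B, 2.16 for CBF1, 1.60 for SRG2, 3.63 for ERF-B5, 1.73 for NAOD, 4.35 for det2 and 3.64 for DDTFR10A. None of the transcripts in this paragraph was called in polysomes. They are sorted here by their total RNA change for Hardening, which the difference subtracts. Where polysomes changed little, the sign thus follows from the sorting. LE25, AKR4B, ASR3, ca3, Cab-1D, CAB12, Cab-1A and Cab-3C were also named for the size of that total RNA change.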

How the results depend on the processing

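Scaling decided the balance of calls. On TPM as deposited, the polysome comparison gave 8003 Up and 94 Down, total RNA for Hardening 4909 Up, the difference from the Hardening change 6378 Up and 1575 Down and that from the Stress change 6892 Up and 236 Down. Signs turned on this scale for ERF-D4 (0.11), DHN (0.0078), ERF6 (0.0895), H1 (0.16) and WRKY40 (0.12), which were then not called, and for ERF-B5 (1.06), CAB1B (1.07) and CHI3 (1.14), which were then Up. The number Up in polysomes was 169 with a minimum of 5, 152 with the 4 libraries alone and 228 with sums per gene. Leaving out 1 library in turn gave 23 to 1205 Up and 23 to 421 Down in polysomes, and against the Stress change 756 to 2158 Up and 384 to 886 Down. The change of ERF-B4 ran from -2.85 without Control replicate 1 to 2.59 without Control replicate 2, in which it had 42.1 scaled TPM. With 1 library left in a group, that library was assumed to vary like the others.

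The correlations of the polysome change with the total RNA changes for Hardening and Stress were -0.147 and 0.0818 on TPM as deposited, 0.0136 and 0.0234 with a pseudocount of 0.1, -0.0323 and 0.0518 without a filter, -0.015 and 0.0968 with a minimum of 5, and -0.0469 and 0.0785 with the 4 libraries alone. They ran from -0.0382 to -0.0158 and from 0.0527 to 0.0698 when a library was left out. The value for Stress was 0.14 for transcripts with a mean of at least 10, a choice made after seeing the data.

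A replicate block gave 213 Up and 284 Down in polysomes. The replicate numbers are not known to pair the libraries, and deviations of same-numbered libraries had a correlation of 0.03 in polysomes and of 0.28 to 0.29 in total RNA. The TPM keep no depth, which limits what can be said of low transcripts.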
